A study of Cyanidioschyzon merolae with 75 samples.

Results

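Cells of the second cycle at 38, 40 and 42 h were compared with cells of the first cycle at 14, 16 and 18 h, that is with the times 24 h earlier in synchronised Cyanidioschyzon merolae 10D, a single-celled red alga. The arrays were chosen by their labels, as these 6 times in the third series, and are 6 of the 75 arrays of the study. The cells had been brought into step by cycles of light and dark and were sampled at 25 times, from 2 to 50 h. All samples share the strain, no mutant or treated culture entered any group, and the sources used here do not give the clock hours of light and dark. On each array Cy3 marked the RNA of 1 sampling time, and Cy5 marked a pool mixed from all samples. Every value below is a log2 ratio of Cy3 to Cy5 with the median of its array set to 0, so a level is a level relative to that pool and to the other genes on the array.

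Cyanidioschyzon merolae is a red alga of acidic hot springs with 1 nucleus, 1 mitochondrion and 1 plastid per cell. Light and dark cycles set its divisions in step, with organelles dividing before the nucleus and cell, so cells taken at equal times of successive cycles should be at like stages if the cycles ran alike. Bulk RNA was measured, so a lower ratio can mean fewer cells at a stage or less RNA of the gene per cell, and these cannot be told apart. The reference table used here gives locus tags and chromosomes without gene products, so genes are given by tag, without roles.

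The array held 4586 probes for 4576 genes. Of the tags 4565 were in the gene table of assembly ASM9120v1, whose chromosome numbers are used below. Cy3 intensities of the third series equalled the mean of the other series within 0.01% in 100% of probes at 5 of these 6 times. Only these 5 could be compared, and the Cy5 channel was not part of the check. The third series is thus no further replicate. The labels do not say whether the other series came from separate cultures, and the fit uses 1 value per time. The matched differences (38 minus 14, 40 minus 16 and 42 minus 18 h) served as the 3 values of the comparison, and the test measured their scatter, together with that of 9 further matched differences. Neighbouring times resemble each other, so p-values may be too small. The arrays were not alike in brightness. The median Cy5 intensity of the pool was 1074, 1250 and 1042 at 38, 40 and 42 h, against 3848, 1859 and 3657 at 14, 16 and 18 h. Median Cy3 was 2567, 3569 and 2998 at the later times and 3223, 4862 and 3430 at the earlier ones. The dimmer pool channel thus moved with the comparison, and its part in the results was not tested.

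Across all genes the mean of the later times resembled most the arrays of 14 to 18 h among those of the first cycle. The mean of 38, 40 and 42 h had a Pearson correlation across 4576 genes of 0.42 with 14 h, 0.51 with 16 h and 0.51 with 18 h, and of 0.32 with 20 h, 0.23 with 12 h and -0.50 with 4 h. Taken singly, 38 and 42 h were most like 18 h (0.52 and 0.50) and 40 h was most like 16 h (0.47). With its own matched time, 14 h, 38 h had only 0.38, below its 0.49 with 16 h. At 42 h the value was 0.43 with 20 h and 0.41 with 14 h. Likeness was closer within a cycle, with 0.75 to 0.86 between the later times and 0.58 to 0.67 between the earlier ones. Genes are not independent replicates, and all arrays share the pool, so these values describe the arrays and carry no test.

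**Figure D1:**
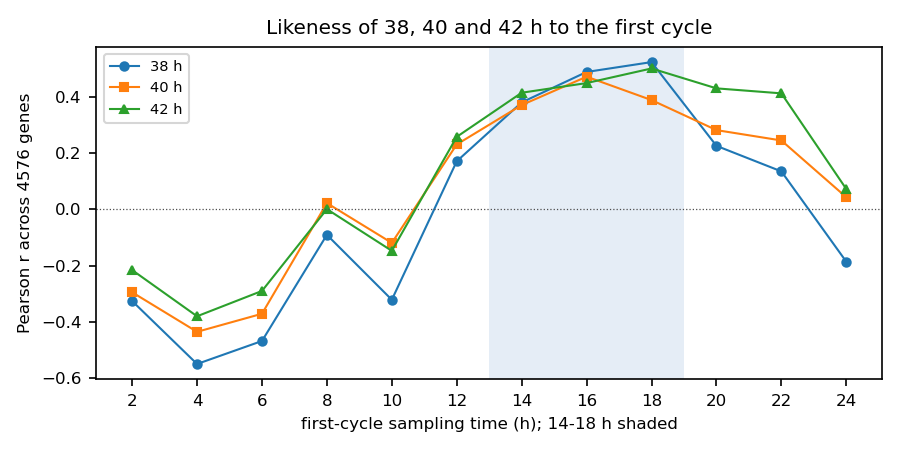
Pearson correlation across 4576 genes of the log2 ratios at 38, 40 and 42 h (1 line each) with those at each first-cycle time from 2 to 24 h. The lines reach their highest values, 0.47 to 0.52, at 16 or 18 h, inside the shaded 14-18 h, and are lowest at 4 h.

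Most genes differed little between the matched stages. The difference was under 1.5-fold in 4276 of 4576 genes (93.4%), and its 5th and 95th percentiles were -0.44 and 0.52 on the log2 scale. Limma's moderated test with Benjamini-Hochberg adjustment over all genes called 94 (2.05%) at an adjusted p under 0.05 and at least 1.5-fold, of which 51 were higher (1.11%) and 43 lower (0.94%) at 38-42 h. The difference in the higher genes had a median of 0.88 (1.84-fold) and in the lower genes of -0.99 (1.99-fold). Higher genes were the smaller part of the calls with loess (47 of 98), with scaling between arrays (102 of 219) and with normexp (53 of 125). An unadjusted p under 0.05 was found in 764 genes. Of the higher genes 16 lay on chromosome 10, whose 229 measured genes had a median difference of 0.31, and without that chromosome 34 higher and 42 lower genes were called. The count rests on having all 3 matched times: 12 genes were called without 38 and 14 h, 2 without 40 and 16 h and 20 without 42 and 18 h. All 94 kept their sign in the first and the second series at both 40 minus 16 and 42 minus 18 h. These series are no separate check, since the mean of their Cy3 intensities at these times is that of the third.

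The gene with the largest called rise was CMK095C. Its ratio was 0.71, 0.68 and 0.46 at 38, 40 and 42 h, against -1.28, -1.26 and -1.09 at 14, 16 and 18 h. The later cells lay above the pool and the earlier ones far below it, with no overlap. The difference was 1.83 ± 0.35 on the log2 scale, or 3.55-fold (adjusted p = 0.0261, limma). Here and below, ± gives limma's moderated standard error. Its spread is drawn from all 12 matched differences, so it is not the scatter of these 3 alone. CMS331C had 0.22, 0.67 and 0.17 at the later times and -1.86, -0.98 and -1.54 at the earlier ones, a difference of 1.82 ± 0.28 (adjusted p = 0.0101, limma). CMJ240C had 0.67, 0.60 and 0.23, against -1.78, -0.65 and -1.19, a difference of 1.71 ± 0.38 (adjusted p = 0.0396, limma). In both genes the earlier cells were spread more widely than the later ones and still lay wholly below them. With the median of each chromosome subtracted, the difference of CMJ240C was 1.36 with an adjusted p of 0.0563 (limma).

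CMD108C was steadier within each stage, at 0.93, 0.97 and 0.95 at 38, 40 and 42 h and at -0.37, -0.46 and -0.63 at 14, 16 and 18 h, and rose by 1.44 ± 0.25. CMH080C reached 1.14, 1.04 and 0.94 in the later cells, against -0.50, -0.53 and 0.03 in the earlier ones, and rose by 1.37 ± 0.20. CMQ350C had 0.23, 0.44 and 0.58, against -0.86, -0.91 and -0.68, a rise of 1.24 ± 0.16 with the smallest adjusted p of the higher genes (0.0040, limma). In each of these 3 genes the later cells were all above the pool, and the groups did not overlap. The other 9 of the 15 largest were CMN308C, CMQ301C, CMP110C, CMJ080C, CMN011C, CMD135C, CMA021C, CMC010C and CME074C, which rose by 1.08 to 1.24.

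CME183C showed the largest difference of the 94 genes. It was at -1.84, -1.79 and -1.57 at 38, 40 and 42 h, against 0.39, 1.26 and 0.35 at 14, 16 and 18 h. The earlier cells were all above the pool and the later ones all far below it. The gene fell by 2.40 ± 0.30 on the log2 scale, with an adjusted p of 0.0040 from limma. CMH135C had -0.65, -1.16 and -1.02 at the later times and 0.79, 0.87 and 0.40 at the earlier ones, and fell by 1.63 ± 0.18 (adjusted p = 0.0028, the smallest of all genes, limma). It was the only named gene that kept its call with 40 and 16 h left out, with -1.43 and an adjusted p of 0.0468 (limma). Without those times the difference of CME183C was -2.07 with an adjusted p of 0.0817 (limma).

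CME041C and CMS188C were below the pool in both cycles. CME041C had -2.40, -2.10 and -2.35 in the later cells and -0.74, -0.35 and -0.95 in the earlier ones, and fell by 1.60 ± 0.21. CMS188C had -1.70, -2.13 and -2.43, against -0.77, -0.54 and -0.79, and fell by 1.39 ± 0.20. CMF129C lay on the other side at the earlier stage, with -0.69, -0.86 and -1.05 at 38, 40 and 42 h and 0.57, 0.70 and 0.26 at 14, 16 and 18 h, and fell by 1.38 ± 0.24. The groups of all 3 genes were fully apart. A further 10 lower genes, CMA114C, CMT162C, CMT159C, CMM003C, CMQ374C, CMR319C, CMT265C, CMT423C, CMQ293C and CMI194C, had differences from -1.30 to -1.12. The matched differences of CMI194C were uneven, at -1.82, -1.43 and only -0.12 at 42 minus 18 h (adjusted p = 0.0478, limma). CMT265C, with a mean log2 intensity of 10.6, had a difference of -2.51 with normexp and -1.16 here.

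**Figure D2:**
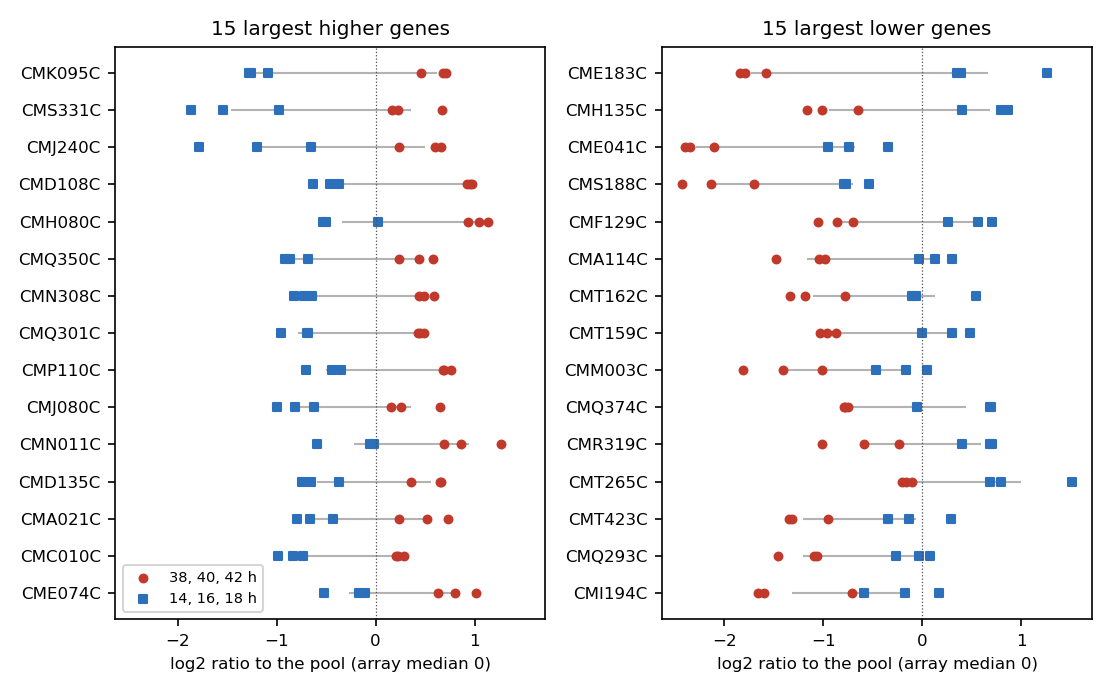
Log2 ratios to the pool (array median 0) of the 15 largest higher and 15 largest lower called genes, with 1 point for each of 38, 40 and 42 h (circles) and 14, 16 and 18 h (squares) and a line between the means. In all 30 genes the circles and squares do not overlap.

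The direction of the difference was the same at all 3 matched times in all 94 genes. The values of the groups did not overlap in 50 of 51 higher and 42 of 43 lower genes, against 14.7% of all genes in the higher and 14.6% in the lower direction. The exceptions were CMQ142C and CMI196C, the second of them named after its values were seen. Since the same values made the calls, these shares describe the 94 genes and add no evidence. The higher genes were below the pool at 14-18 h in 51 of 51 cases and above it at 38-42 h in 47. The lower genes were below the pool at 38-42 h in 41 of 43 and above it at 14-18 h in 28. The difference was largest at 38 minus 14 h in 22 higher and 21 lower genes, at 40 minus 16 h in 9 and 18, and at 42 minus 18 h in 20 and 4. Among all 4576 genes it was largest at these pairs in 2462, 815 and 1299, so the first pair led in general.

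At least 2-fold at every matched time were 13 genes in the higher (0.284%) and 5 in the lower (0.109%) direction. This balance turned with the processing, to 8 higher and 17 lower with arrays scaled to equal spread and to 18 higher and 21 lower with normexp background correction. The limma call covered 10 and 4 of the 13 and 5 genes. The remaining ones, chosen after their values were seen, were CMJ126C, CMJ096C, CMJ050C and CMM227C. CMJ126C had a difference of 1.86 ± 0.52, larger than that of any called higher gene, with an adjusted p of 0.0885 from limma. CMM227C had a difference of -1.42 ± 0.39 with an adjusted p of 0.0782 (limma). CMJ096C and CMJ050C had differences of 1.73 ± 0.45 and 1.13 ± 0.34.

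Calls were most frequent among bright genes. The brightest 20% of genes by mean log2 intensity held 30 of the 51 higher (3.28% of those genes) and 34 of the 43 lower genes (3.72%), and the dimmest 20% held 0 and 2. None of the 94 called genes had more than 1 probe.

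The median of the higher genes stood highest at 38-42 h of all sampling times, which is in part how they were chosen. It was 0.44, 0.46 and 0.32 at 38, 40 and 42 h and -0.50, -0.37 and -0.60 at 14, 16 and 18 h. Its highest value at any other time was 0.065, at 24 h. At the times directly around the later stage it was 0.022 at 36 h and -0.30 at 44 h. Around the earlier stage it was -0.26 at 12 h and -0.39 at 20 h. The lower genes moved otherwise. Their median ratio was -1.02, -0.79 and -0.78 at 38, 40 and 42 h, against 0.18, 0.30 and -0.05 at 14, 16 and 18 h. It was already -0.55 at 32 h, reached -1.36 at 46 h and was back at 0.073 at 50 h. At 46 h the median of the higher genes was low as well, at -0.54. The log2 ratios of all genes were spread most widely on that array. Their standard deviation was 0.62 there, against 0.31 to 0.43 at 38-42 h. The part of this spread in these medians was not tested.

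**Figure D3:**
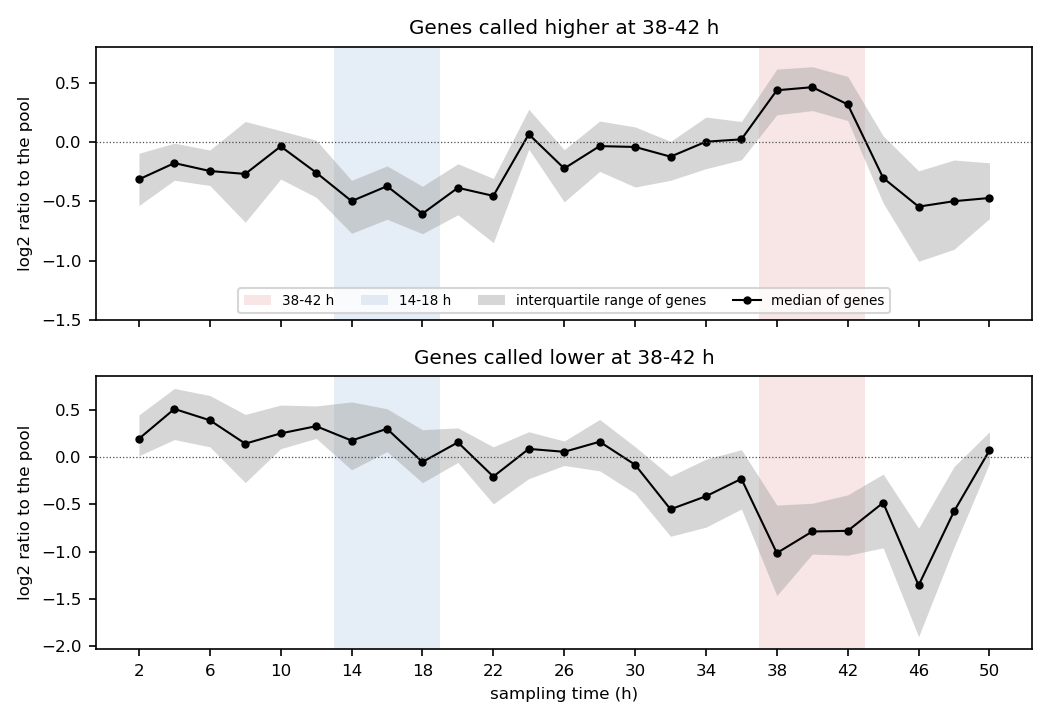
Median log2 ratio to the pool (line) and interquartile range (grey) of the 51 higher and 43 lower genes at the 25 sampling times, with 38-42 h and 14-18 h shaded. The higher genes reach 0.32 to 0.46 at 38-42 h, and the lower genes stay below 0 from 30 to 48 h. The shaded values chose the genes.

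In the 3 other matched windows the mean differences took no part in choosing these genes, but their scatter did, through the spread shared between windows. A gene with a small spread thus passes more readily in each window, and these windows are no independent check. In the higher genes the median difference was 0.10 at 26-30 h against 2-6 h, 0.050 at 32-36 h against 8-12 h and -0.14 at 44-48 h against 20-24 h. Called higher there were 2, 2 and 0 of the 51, beside 0.328%, 2.08% and 0.284% of all genes. They were CMS331C and CMQ142C in the first window and CMQ142C and CMJ157C in the next. On the average of these windows 0 of the 51 were called higher by limma (0.306% of all genes), and 29 had a positive difference. A positive difference on that average was found in 2468 of all 4576 genes. CMK095C had -0.029, -0.020 and -0.045 in the 3 windows in order, all close to 0 beside its 1.83 at 38-42 h.

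In the lower genes the same windows gave medians of -0.27, -0.80 and -0.80. Called lower were 5, 21 and 28 of the 43, beside 0.677%, 1.62% and 5.24% of all genes. On the average of the 3 windows limma called 21 of the 43 lower (2.73% of all genes), and 41 had a negative difference. Of all 4576 genes, 2468 had a positive difference on that average. CMT162C had -1.25, -1.05 and -1.22 in these windows and -1.23 at 38-42 h, and was called in all 4. CMT159C, CMM003C and CMQ293C were called at 32-36 and 44-48 h as well, with differences from -1.38 to -1.11 there. CMR319C and CMT265C were lower at 38-42 h and had 0.21 and -0.19 at 32-36 h, with no call in any other window. In all, 3 of the 51 higher and 34 of the 43 lower genes were called the same way in at least 1 other window, and 57 of the 94 in none. No share over all genes stands beside these counts, since the shares above are those of single windows.

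**Figure D4:**
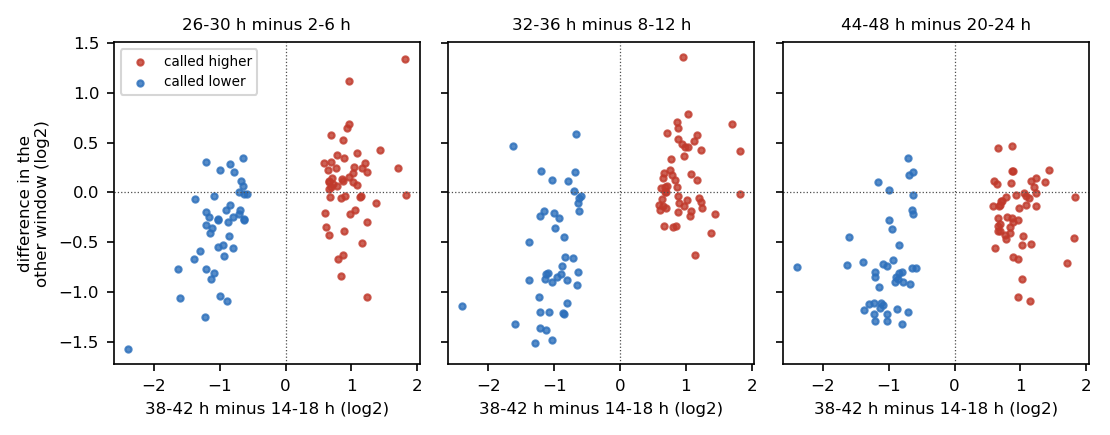
Difference at 38-42 h minus 14-18 h (horizontal axis, log2) of each of the 94 called genes against its difference in each other window (vertical axis, log2), for higher (red) and lower (blue) genes. Lower genes lie mostly below 0 in each panel, with medians of -0.27, -0.80 and -0.80, and higher genes lie around 0, with medians of 0.10, 0.050 and -0.14.

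Whether a difference at 38-42 h was unlike that at the neighbouring stages was tested in the same limma fit. Against 32-36 minus 8-12 h, 49 genes were called (1.07%), with the 38-42 h difference above the other in 13 (0.284%) and below it in 36 (0.787%), and 638 had an unadjusted p under 0.05. Of the 10 largest gaps, 9 were in genes called at 32-36 h and not at 38-42 h. CMN166C had a difference of -0.40 ± 0.28 at 38-42 h and of 2.17 at 32-36 h. Its ratio was 0.58, 0.24 and 0.22 at 38, 40 and 42 h and 0.66, 1.40 and 0.20 at 14, 16 and 18 h. The groups overlapped. The gap between the windows was -2.57 ± 0.39, with an adjusted p of 0.0084 from limma. CMN169C (-2.57), CMN330C (-2.26), CMJ103C (-2.22), CMR406C (-2.18), CMN173C (-2.16), CMN183C (-2.08), CMN262C (-2.05) and CMN066C (-1.96) had like gaps, and none of these 9 genes was called at 38-42 h.

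CMH135C was the exception among the 10 largest gaps. Its difference was -1.63 at 38-42 h, 0.47 at 32-36 h and -0.77 and -0.72 at 26-30 and 44-48 h, with a gap to 32-36 h of -2.10 ± 0.26 (adjusted p = 0.0039, limma). Of the 51 higher genes 9 passed this test, among them CMH080C (gap 1.78), CMD135C (1.78), CMD108C (1.66), CMQ350C (1.39) and CME074C (1.26). Of the 43 lower genes 4 passed. The choice of these genes used the difference at 38-42 h, which is 1 side of the gap, so these counts are not independent of it. Leaving out 40 and 16 h reduced the 49 calls to 2, of which CMH135C was 1.

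Against 44-48 minus 20-24 h, 242 genes were called (5.29%), with 123 above it (2.69%) and 119 below it (2.6%), and 1270 had an unadjusted p under 0.05. These calls lay close to the threshold. With 1 matched time left out they numbered 0, 2 and 0, and with loess within arrays 0 (628 genes at an unadjusted p under 0.05 in limma). With arrays scaled to equal spread there were 19. The log2 ratios had a standard deviation over genes of 0.41, 0.62 and 0.55 at 44, 46 and 48 h. At 20, 22 and 24 h it was 0.29, 0.38 and 0.31. Of the 51 higher genes 36 passed and of the 43 lower genes 6, with the same limit on independence. Of these 36, 14 lay on chromosome 10, which held 16 of the 51 higher genes. The median difference of all 229 genes of that chromosome was 0.31 at 38-42 h and -0.18 at 44-48 h. CMS331C had differences of 1.82 at 38-42 h and -0.46 at 44-48 h, a gap of 2.27 ± 0.40. CMD135C had 1.15 and -1.09, a gap of 2.23 ± 0.37, and was called in opposite directions in these windows. CMQ142C also was, with 0.96 and -1.05, a gap of 2.01 ± 0.29 that was -0.17 when arrays were scaled to equal spread. The adjusted p of these 3 genes was 0.0302, 0.0294 and 0.0294 (limma).

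Genes of chromosome 10 were unevenly represented. Of the 51 higher genes 16 lay there, and of the 43 lower genes 0. Of its 229 measured genes 6.99% were called, against 0.84% to 3.79% on each of the other 19 chromosomes. The 16 genes, named after their values were seen, were CMJ023C, CMJ033C, CMJ062C, CMJ066C, CMJ068C, CMJ080C, CMJ114C, CMJ129C, CMJ138C, CMJ153C, CMJ157C, CMJ160C, CMJ163C, CMJ165C, CMJ240C and CMJ260C. Their differences ran from 0.62 to 1.71 with a median of 0.86, and none of the called genes stood beside another in the order of genes on its chromosome.

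The shift was not limited to the called genes. The median difference of all 229 genes was 0.31, and it was 0.32, 0.28 and 0.34 at the 3 matched times. On the other chromosomes the median ran from -0.12 to 0.076. On chromosome 10 the difference was above 0 in 196 genes (85.6%), against 33.6% to 59.2% of genes on each other chromosome. The groups did not overlap, in the higher direction, in 116 of its genes (50.7%, against 14.7% of all genes). In 5 equal classes of genes, from the dimmest to the brightest, the chromosome's median was -0.098, 0.070, 0.24, 0.50 and 0.58, against -0.14, -0.0021, 0.072, 0.049 and -0.083 in genes elsewhere. When the chromosome was cut into 10 stretches in the order of tags, all had a positive median, from 0.24 to 0.57. The median for the chromosome was 0.22 to 0.39 with the other ways of normalising and with the authors' log2 values.

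By array, the median ratio of chromosome 10 was -0.031, -0.025 and -0.042 at 38, 40 and 42 h, against -0.36, -0.31 and -0.45 at 14, 16 and 18 h. It was low on all 10 arrays of 12 to 22 h and 44 to 50 h, from -0.45 to -0.23, and between -0.081 and 0.051 on the other 15. The lowest median of any other chromosome on any array was -0.098. In the Cy3 channel the chromosome's probes lay 0.67, 0.45 and 0.21 above the median of the array (log2) at the later times and 0.075, 0.28 and 0.19 at the earlier ones. In the Cy5 channel of the pool they lay 0.83, 0.52 and 0.24 above it at the later times and 0.46, 0.68 and 0.79 at the earlier ones. Both channels therefore varied between arrays, and why the chromosome's ratio moved was not tested.

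**Figure D5:**
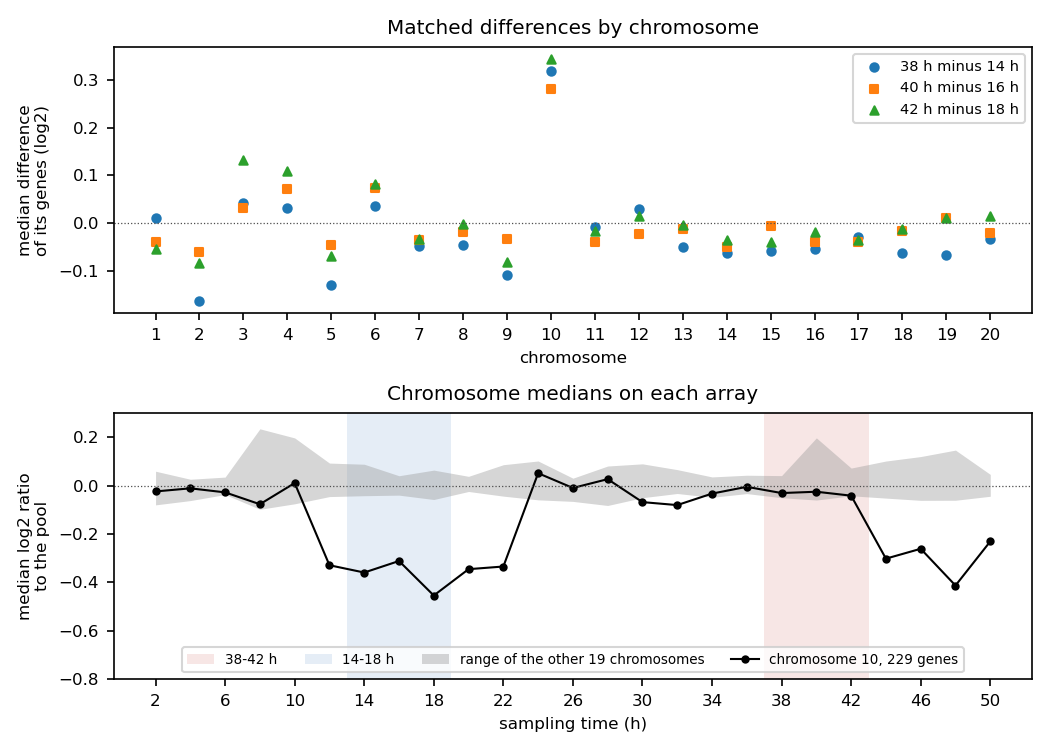
Top, the median of the 38 minus 14, 40 minus 16 and 42 minus 18 h differences (log2) over the genes of each chromosome, with chromosome 10 at 0.28 to 0.34 and the others between -0.16 and 0.13. Bottom, the median log2 ratio of chromosome 10 on each array (line) and the range of the other 19 chromosomes (grey), with 38-42 h and 14-18 h shaded; chromosome 10 is at -0.45 to -0.23 from 12 to 22 h and from 44 to 50 h.

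With chromosome 10 left out of the fit, 76 genes were called, 34 higher and 42 lower, all of them among the 94. With the median of each chromosome subtracted on each array, 58 were called, 22 higher and 36 lower, and 57 of these were among the 94. Both fits were chosen after the data were seen. The higher genes off chromosome 10 had a median ratio of 0.48, 0.54 and 0.42 at 38, 40 and 42 h and -0.39, -0.29 and -0.55 at 14, 16 and 18 h. Those on it had 0.26, 0.24 and 0.15 at the later times and -0.74, -0.57 and -0.71 at the earlier ones. Of the 123 genes whose difference lay above that at 44-48 h, 47 were on chromosome 10, among them CMJ096C (3.05), CMJ065C (2.53), CMJ240C (2.42), CMJ159C (2.11), CMJ068C (1.90) and CMJ151C (1.87). Without the chromosome 100 gaps were called in place of 242.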

How the data were processed

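Per the labels, Cy3 carried the sampling time and Cy5 the pool; amplification was from an oligo(dT) primer. Per the file headers, the deposited files give raw intensity per channel, Cy3 intensity scaled by the authors, the authors' ratio of scaled Cy3 to Cy5, and the authors' log2 value, which set against that ratio is centred per probe. The sources used here do not give the scanner or the handling of background. Here log2(raw Cy3/raw Cy5) of series 3 was centred on the array median and averaged over a gene's probes. With limma 3.58.1 in R 4.3.3, 12 differences between times 24 h apart were fitted as 4 windows of 3 with a shared spread, and p-values were Benjamini-Hochberg adjusted over 4576 genes; calls needed an adjusted p under 0.05 and 1.5-fold. The fit was tested on simulated data. Precision is limited by the number of arrays.

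Named are the 15 called genes with the largest difference in each direction and the 10 with the largest called gap to each neighbouring window. The 27 functional gene lists drawn up had 0 matched members, because no product names were given. Times, lists and tests were chosen with earlier results of these data known. Alternatives covered normalisation, background, dim genes, spread, pairing, weights, series, omitted times, shifted times and chromosome 10.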

Additional observations from a re-analysis of the deposited data

Results flagged for a closer look

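The difference at 38-42 h was set apart from that of a neighbouring window by limma's test of the gap itself, in 49 genes against 32-36 minus 8-12 h and in 242 genes against 44-48 minus 20-24 h. Against the earlier window the largest gaps (log2) were those of CMN166C (-2.57), CMN169C (-2.57), CMN330C (-2.26), CMJ103C (-2.22), CMR406C (-2.18), CMN173C (-2.16), CMH135C (-2.10), CMN183C (-2.08), CMN262C (-2.05) and CMN066C (-1.96). Against the later window they were those of CMJ096C (3.05), CMJ065C (2.53), CMJ240C (2.42), CMS331C (2.27), CMD135C (2.23), CMJ159C (2.11), CMQ142C (2.01), CMJ068C (1.90), CMK095C (1.87) and CMJ151C (1.87). Each gap has 3 matched differences on either side, with 1 value per time. With arrays scaled to equal spread the gap was 1.61 for CMJ096C, 1.58 for CMJ240C, 1.02 for CMJ159C, 0.95 for CMJ068C and 1.04 for CMJ151C, and that of CMJ065C was 1.68 without 38 and 14 h and that of CMK095C 1.24 with loess, all without a call in limma.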

How the results depend on the processing

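No paired analysis was possible because the replicate numbers in the labels, which would set the pairs, are the series. Series 3 is no further replicate. Its Cy3 intensities, where compared, were the mean of those of series 1 and 2. The limit concerns pairs set by replicate number only. The main fit is itself paired in time, since it matches times 24 h apart. The 94 calls became 219 with scaling between arrays, 183 with the spread of this window alone and 277 with array weights. They became 29 without 26-30 and 2-6 h in the spread. In series 1 and 2, whose 14 h arrays hold no raw intensities, they became 10 and 14. They became 58 with chromosome medians subtracted, 20 with times 22 h apart and 61 with times 26 h apart. These last 3 fits were chosen after the data were seen. With a matched time left out 2 to 20 were called. The higher share of calls, 54.3%, was 42.4% with normexp, 64.4% without matching of times, 65.6% with the spread of this window alone, 44.7% without chromosome 10 and 37.9% with chromosome medians subtracted. The 49 gaps to 32-36 h became 74 with scaling, 139 with quantiles, 23 without 26-30 and 2-6 h, 4 without matching, 413 with weights and 2 to 44 with a matched time left out. The 242 gaps to 44-48 h became 0 with loess (628 genes at an unadjusted p under 0.05 in limma), 19 with scaling, 60 with quantiles, 54 with normexp, 82 without the dimmest 20% of genes, 0 without 26-30 and 2-6 h (1055), 0 in series 1 (868) and 0 in series 2 (922), 100 without chromosome 10, 99 with chromosome medians subtracted, and 0 to 2 with a matched time left out (908 to 1112). Genes past 2-fold at all 3 matched times, 18, became 39 with normexp (18 higher, 21 lower) and 25 with scaling (8 higher, 17 lower). The gap of CMQ142C was -0.17 with scaling. Fewer genes or arrays enter some fits by construction; otherwise the cause was not tested. Named differences at 38-42 h kept their call in 441 of 627 fits and reversed in 0. Named gaps kept it in 142 of 179 fits against 32-36 h, reversed in 0, and in 71 of 174 against 44-48 h, reversed in 1. These totals include the fits with adjusted p alone, where a called gene cannot lose its call. By setting, 1 of 30 named differences was kept without 40 and 16 h, 5 of 30 in series 1 and 30 of 30 with quantiles.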

Other observations

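Genes that directly neighbour a higher gene on its chromosome had a median difference of 0.12, and 35 of the 51 gene-wise neighbour means were above 0 (68.6%). Around lower genes the median was -0.050, with 18 of 43 above 0 (41.9%), and around all genes it was -0.0086 (48.3%). These values include the shift of chromosome 10.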
